A study of Mus musculus with 4 samples.

Results

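The proteasome genes were followed in bone marrow cells enriched for blood stem cells, from mice labelled GABPalpha-deficient and from control mice. Members were all rows of the deposited table whose platform annotation gave exactly 1 gene symbol starting with Psma to Psmg and a number. The rule used names only, not measured values, but it was chosen with earlier results of these data known. It found 56 probe sets of 50 genes among the 35556 probe sets of the table. They comprised 11 probe sets of core alpha subunits, 9 of core beta subunits, 3 of the immunoproteasome, 7 of regulatory ATPases, 15 of regulatory non-ATPase subunits, 4 of activators, 1 of an inhibitor and 4 of assembly chaperones. The other 2, Psmc3ip and Psme3ip1, matched the letters of the rule but carry the names of interacting proteins, and were kept out of the classes. Psma3 had 3 probe sets, and Psma5, Psmb3, Psmc1 and Psmd2 had 2 each, so members of these genes are not independent of each other.

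Amplified RNA was hybridised to 4 arrays of the Affymetrix Mouse Gene 1.0 ST design, which carries probes along whole transcripts. The 2 arrays labelled deficient came from Mx1Cre-GABPa(FL/-) mice, with 1 floxed and 1 null Gabpa allele. The 2 control arrays came from Mx1Cre-GABPa(FL/+) mice, with 1 floxed and 1 wild-type allele, so the controls carried the transgene and a floxed allele too. Mice of both groups were 6 to 8 weeks old, had been backcrossed to C57/BL6 for 4 generations, and were given pIpC, a double-stranded RNA analogue. Cells were sorted 4 days after the final dose as Flt3(-) LSK cells, which carry Sca-1 and c-Kit and lack lineage markers and surface Flt3, and 800 pg to 50 ng of RNA was amplified. The Mx1 promoter that drives Cre answers to interferon in many cell types. Whether 1 animal or a pool gave each sample is not stated in the labels, so the p-values reflect the spread between these arrays, which may be technical.

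The 26S proteasome degrades proteins tagged with ubiquitin. Its barrel-shaped core has outer rings of alpha subunits and inner rings of beta subunits, of which Psmb5, Psmb6 and Psmb7 carry the catalytic sites. A regulatory particle of Psmc ATPases and Psmd subunits binds, unfolds and feeds substrates. Interferons induce Psmb8, Psmb9 and Psmb10, which replace Psmb5, Psmb6 and Psmb7 in newly built cores and favour the release of peptides for MHC class I. Blood cells hold much of this immune form. GABP, the ETS-family factor encoded by Gabpa and the β subunit genes, binds sequences around CCGGAAG.

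Promoters of 6 members are shown because they hold or lack the letters that known regulators of the family recognise. The windows run from 250 bases before to 50 after the RefSeq start in GRCm38.p6. Capitals mark matches, on either strand, to CCGGAAG (the ETS core), TGACNNNGC (antioxidant response elements bound by NFE2L1 and NFE2L2), GAAA and GAAA with 2 bases between them (interferon response) or TTCNNNGAA (STAT factors). Where 2 motifs share bases the capitals run together. Psmb8 (chr17:34197945-34198244 on the plus strand) and Psmb9 (chr17:34187281-34187580 on the minus strand) encode immune catalytic subunits, Psmb5 (chr14:54617946-54618245 on the minus strand) and Psmb3 (chr11:97703184-97703483 on the plus strand) core beta subunits, Psma6 (chr12:55398575-55398874 on the plus strand) an alpha subunit and Psmg3 (chr5:139826845-139827144 on the minus strand) an assembly chaperone.
Psmb8: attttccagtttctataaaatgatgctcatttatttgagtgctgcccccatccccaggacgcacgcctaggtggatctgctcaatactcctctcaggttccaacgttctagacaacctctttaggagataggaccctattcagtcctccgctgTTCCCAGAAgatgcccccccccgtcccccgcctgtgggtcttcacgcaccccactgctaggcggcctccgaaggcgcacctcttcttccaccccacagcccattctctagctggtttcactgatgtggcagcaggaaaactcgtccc
Psmb9: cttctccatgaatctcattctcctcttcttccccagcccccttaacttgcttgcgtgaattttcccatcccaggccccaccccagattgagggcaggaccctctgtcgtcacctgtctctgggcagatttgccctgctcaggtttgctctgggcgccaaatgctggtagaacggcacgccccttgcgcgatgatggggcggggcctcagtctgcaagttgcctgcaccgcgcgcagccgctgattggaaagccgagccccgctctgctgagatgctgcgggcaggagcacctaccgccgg
Psmb5: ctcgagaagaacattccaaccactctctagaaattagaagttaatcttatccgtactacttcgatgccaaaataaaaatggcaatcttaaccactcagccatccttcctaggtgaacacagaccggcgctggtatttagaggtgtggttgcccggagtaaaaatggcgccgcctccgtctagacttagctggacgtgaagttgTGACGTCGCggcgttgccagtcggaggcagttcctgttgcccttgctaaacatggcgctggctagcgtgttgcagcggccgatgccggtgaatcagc
Psmb3: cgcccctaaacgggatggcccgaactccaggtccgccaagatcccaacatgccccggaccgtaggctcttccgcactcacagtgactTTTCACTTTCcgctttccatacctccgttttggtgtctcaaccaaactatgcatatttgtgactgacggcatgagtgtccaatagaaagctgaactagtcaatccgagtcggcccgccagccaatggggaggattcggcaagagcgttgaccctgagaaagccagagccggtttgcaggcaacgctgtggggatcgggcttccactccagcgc
Psma6: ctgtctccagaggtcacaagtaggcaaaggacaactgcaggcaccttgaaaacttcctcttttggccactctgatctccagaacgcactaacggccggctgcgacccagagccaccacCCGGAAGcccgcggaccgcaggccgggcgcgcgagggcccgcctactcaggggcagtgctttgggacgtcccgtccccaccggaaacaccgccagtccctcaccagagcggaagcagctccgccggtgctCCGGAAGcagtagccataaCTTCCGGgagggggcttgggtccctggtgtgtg
Psmg3: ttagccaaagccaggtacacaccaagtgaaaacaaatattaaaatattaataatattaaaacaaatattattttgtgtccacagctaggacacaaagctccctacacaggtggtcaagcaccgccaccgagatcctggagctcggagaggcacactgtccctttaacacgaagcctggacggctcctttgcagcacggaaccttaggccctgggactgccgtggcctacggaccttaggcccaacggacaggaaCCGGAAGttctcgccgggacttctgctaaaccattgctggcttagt
Psmb8 held 1 STAT-type match from base −97 relative to the start, Psmb5 1 NFE2L1-type match from base −47, and Psmb3 1 interferon-type match on the opposite strand. Psma6 held 3 ETS cores in the window shown, and Psmg3 held 1. The other of the 2 Psma6 windows held 0 and was left out of the display for that reason. The Psmb9 window matched none of the 4 motifs, which says only that these letters are not in this window. In all, 42 of the 50 member genes had a promoter in the RefSeq table, with 46 windows between them. The ETS core stood in 17 of the 46 (37.0%), against 11.6% of 21262 windows of protein-coding genes and 8.86% of all 32851. The NFE2L1-type motif stood in 6 of the 46, against 2759 of the 21262. The interferon-type motif stood in 10.9%, against 3.35%, and the STAT-type motif in 6.52%, against 7.69%. Across genes, which are not replicates, the 16 members with an ETS core had a median log2 difference of 0.14 and the 26 without one 0.12.

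Differences below are log2 values of the arrays labelled deficient minus the controls. SE is the standard error from limma's moderated test, and adjusted p is over the whole table. No member passed an adjusted p of 0.05 in limma (0 of 56), nor did any other probe set (0%). With the unadjusted p under 0.05 as the mark, 5 members were higher and 2 lower on the arrays labelled deficient. The 5 higher ones were 8.93% of members, against 6.64% of all probe sets, and the 2 lower ones 3.57%, against 5.25%. Of the 56 members, 54 lay in the brighter 50% of probe sets, where the shares were 8.34% lower and 7.63% higher. The arrays of the groups did not overlap for 3 members on the lower side and 21 on the higher side (5.36% and 37.5%), against 14% and 38.9% of all probe sets. The median difference over the 56 members was 0.17, against 0.15 over all probe sets and 0.079 over the brighter 50%. The family as a whole thus lay near the background, and the classes within it differed in sign.

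**Figure D1:**
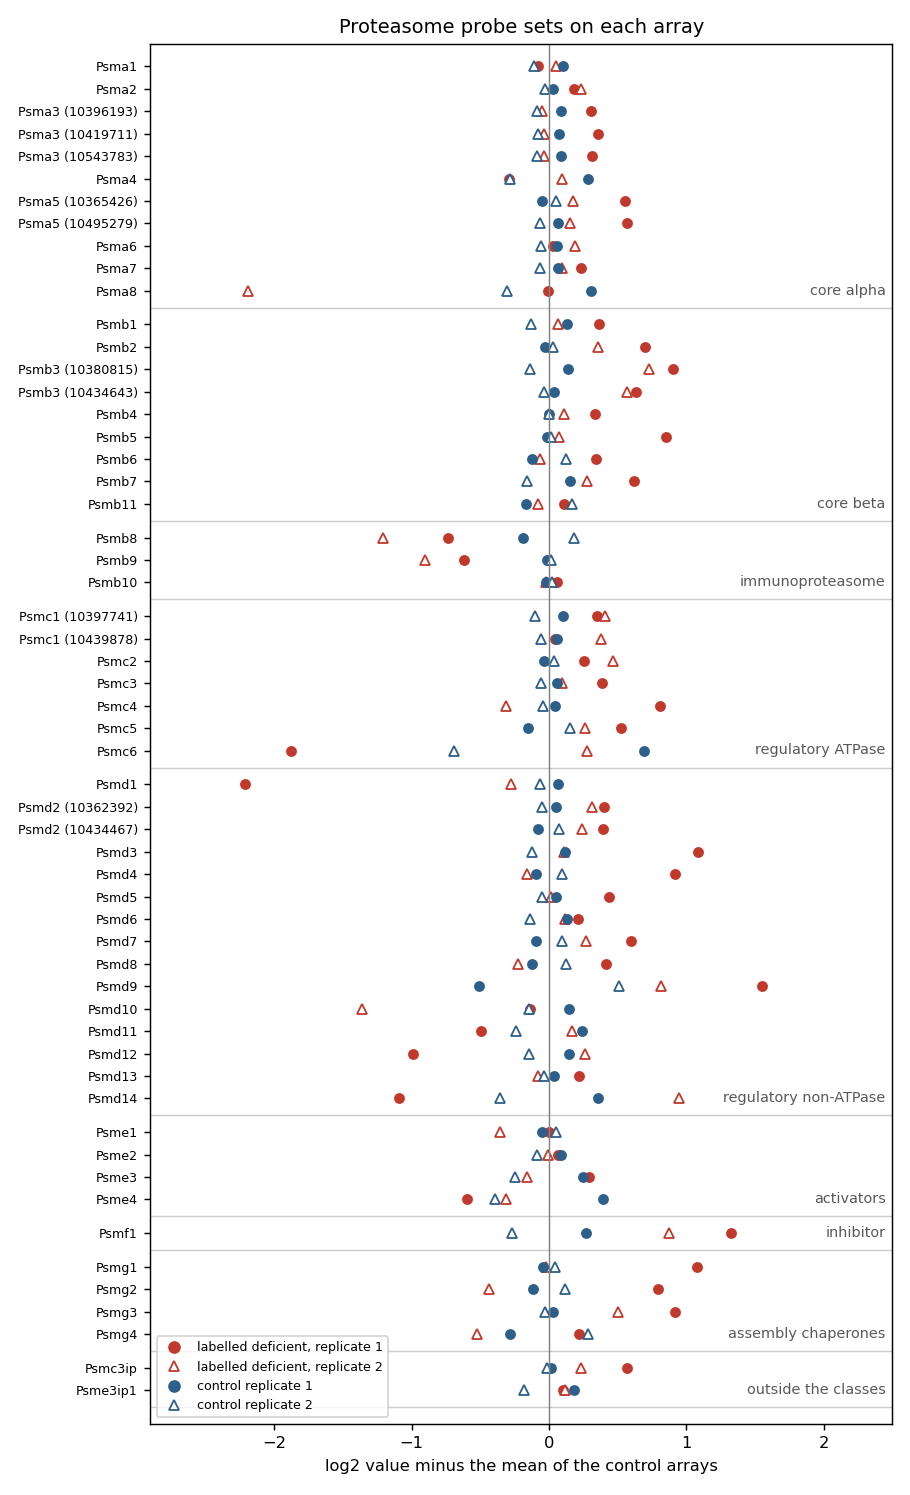
Each row is 1 proteasome probe set and each symbol its log2 value on 1 array minus the mean of the control arrays (red, labelled deficient; blue, control; circles, replicate 1; open triangles, replicate 2). Psmb8 and Psmb9 lie left of both control arrays on both arrays labelled deficient, Psmb3 and Psmf1 lie right of them, and Psmd1, Psmc6 and Psmd14 lie far apart on the arrays labelled deficient.

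The immunoproteasome did not move as 1 block: Psmb8 and Psmb9 were lower on both arrays labelled deficient, and Psmb10 was near its control level. Psmb8 (LMP7, the immune chymotrypsin-like subunit) read 10.20 and 9.72 on the arrays labelled deficient, against 10.74 and 11.11 on the control arrays. The higher of the deficient values lay below the lower control value. The means were 9.96 ± 0.33 on the arrays labelled deficient and 10.93 ± 0.26 on the controls (SD, n = 2 each), a log2 difference of −0.97 (SE 0.26, 95% interval −1.69 to −0.24, limma adjusted p = 0.397). This is a 1.96-fold lower level, and the adjusted threshold was not met.

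Psmb9 (LMP2, which replaces Psmb6) read 11.49 and 11.20 on the arrays labelled deficient, against 12.10 and 12.12 on the control arrays. Both control values lay close together and above both deficient values. The means were 11.35 ± 0.20 and 12.11 ± 0.018 on the arrays labelled deficient and on the controls, a difference of −0.76 (SE 0.17, interval −1.24 to −0.28, limma adjusted p = 0.367), or 1.70-fold lower. Psmb10 (MECL-1, which replaces Psmb7) read 9.38 and 9.30, against 9.30 and 9.35, and its groups overlapped. Its difference was 0.018 (SE 0.14, limma adjusted p = 0.953), with an interval of −0.38 to 0.41 that leaves room for a change of that size either way. It became −0.033 after cyclic loess and −0.063 after subtraction of array medians.

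With each array left out in turn the Psmb8 difference ran from −1.20 to −0.73 and that of Psmb9 from −0.90 to −0.62. The 2 genes are neighbours of Tap1 and Tap2 in the RefSeq gene order, Psmb9 next to Tap1, then Psmb8 and Tap2, while Psmb10 lies on another chromosome. In bulk RNA fewer cells of a type and less RNA per cell cannot be told apart. Stem and progenitor markers were lower on the same arrays (11 of 11 measured below 0, summed linear level 1519 and 1776 on the arrays labelled deficient, against 7308 and 7015 on the controls). Erythroid markers were higher (15 of 15 above 0, summed level 17138 and 18654, against 5170 and 5050). Their part in the Psmb8 and Psmb9 values was not tested.

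The standard catalytic subunits did not follow their immune counterparts. Psmb5, the chymotrypsin-like subunit, read 12.20 and 11.42 on the arrays labelled deficient, against 11.34 and 11.36 on the control arrays. Deficient replicate 1 stood alone above the other 3 arrays. The difference was 0.46 (SE 0.31, limma adjusted p = 0.510), but 0.073 without deficient replicate 1, so that array carried most of it. Psmb6, the caspase-like subunit, read 12.05 and 11.64, against 11.58 and 11.83, with overlapping groups and a difference of 0.14 (SE 0.22, adjusted p = 0.744), which was −0.063 without deficient replicate 1. Psmb7, the trypsin-like subunit, read 10.82 and 10.48, against 10.36 and 10.05, without overlap, and differed by 0.45 (SE 0.22, adjusted p = 0.444). The Psmb7 difference was 0.28 without deficient replicate 1.

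Within each pair the difference of the immune subunit was below that of its standard counterpart. Psmb10 itself differed by only 0.018, so the gap of its pair lay in Psmb7, which differed by 0.45. The Psmb8 difference minus the Psmb5 difference was −1.43, that of Psmb9 minus Psmb6 was −0.90 and that of Psmb10 minus Psmb7 was −0.43. In terms of each pair's own control mean, the immune-minus-standard value was −1.59 and −1.28 for Psmb8 and Psmb5 on the arrays labelled deficient, against −0.17 and 0.17 on the controls. For Psmb9 and Psmb6 it was −0.97 and −0.84, against 0.11 and −0.11. For Psmb10 and Psmb7 it was −0.56 and −0.30, against −0.18 and 0.18. The groups did not overlap in any of the 3 pairs, but the share of other pairs of probe sets without overlap was not computed. For single probe sets the share without overlap was 14% on the lower side and 38.9% on the higher side. With 2 arrays a group an exact two-sided permutation test cannot go below p = 0.333, the value it gave for each pair.

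**Figure D2:**
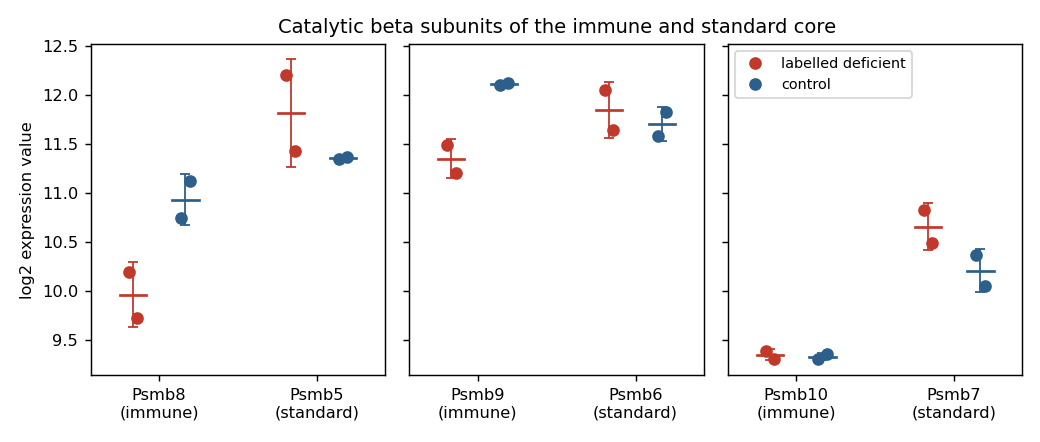
Log2 expression values of the 3 immune catalytic subunits and the standard subunit each replaces. Points are arrays (red, labelled deficient; blue, control), horizontal lines are means and error bars are SD (n = 2); Psmb8 and Psmb9 are lower on the arrays labelled deficient, while Psmb5, Psmb6 and Psmb7 have means above their controls.

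Core beta subunits had a median difference of 0.45 over 9 probe sets, 0.30 above that of all probe sets, but this rested on deficient replicate 1. Without that array the class median was 0.11, against 0.14 over all probe sets in the same fit. All 9 lay above 0, as did 23589 of the 35556 probe sets of the table. For 6 of 9 the groups did not overlap, against 38.9% of all probe sets on the higher side. With an unadjusted p under 0.05, 3 of 9 were higher, against 6.64% of all probe sets. The 3 came from 2 genes, both probe sets of Psmb3 and that of Psmb2, subunits without catalytic activity of their own. Psmb3 read 11.07 and 10.89 on the arrays labelled deficient, against 10.30 and 10.03 on the controls, by probe set 10380815 (difference 0.82, SE 0.18, limma adjusted p = 0.363). Probe set 10434643 gave 11.53 and 11.47 on the arrays labelled deficient, against 10.93 and 10.86 on the controls (difference 0.60, SE 0.14, adjusted p = 0.375). Both probe sets separated the groups in the same direction, at about a 1.76-fold and a 1.52-fold higher level. With 1 array left out, the differences ran from 0.68 to 0.95 and from 0.56 to 0.64.

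Psmb2 read 11.40 and 11.06, against 10.67 and 10.74, also without overlap (difference 0.53, SE 0.18, adjusted p = 0.419). The value without deficient replicate 1 was 0.36. Psmb1 and Psmb4, further structural subunits, differed by 0.21 (SE 0.20) and 0.22 (SE 0.16), and by 0.065 and 0.11 without deficient replicate 1. Psmb11, the catalytic subunit of the thymus form, was among the dimmer 50% of probe sets and differed by 0.014 (SE 0.19). It was −0.19 after cyclic loess. The class median was 0.62 without deficient replicate 2.

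Core alpha subunits, which form the outer rings and the gate of the barrel, had a median difference of 0.14 over 11 probe sets, almost that of all probe sets. None reached an unadjusted p of 0.05 in either direction. Psma5 had the widest shift upward, with 12.25 and 11.87 on the arrays labelled deficient, against 11.65 and 11.75 on the controls (probe set 10365426, difference 0.36, SE 0.20, adjusted p = 0.461). Its other probe set, 10495279, gave 0.36 (SE 0.21). Both were smaller without deficient replicate 1, at 0.18 and 0.15. The 3 probe sets of Psma3 differed by 0.13, 0.16 and 0.14, but by −0.048, −0.033 and −0.036 without deficient replicate 1. Psma2, Psma6 and Psma7 differed by 0.21, 0.11 and 0.17, and Psma6 by 0.032 without deficient replicate 2.

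Psma1 and Psma4 lay at −0.015 (SE 0.16) and −0.098 (SE 0.28), and both changed sign without control replicate 1 (0.090 and 0.19) or without deficient replicate 1 (0.051 and 0.093). Psma8, the alpha subunit of the testis form, read 7.18 and 5.002 on the arrays labelled deficient, against 7.50 and 6.88 on the controls. Only deficient replicate 2 stood apart. Its difference was −1.10 (SE 0.83, adjusted p = 0.539), but −0.0079 without deficient replicate 2 and −2.19 without deficient replicate 1.

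The ATPases of the regulatory particle, which unfold substrates at the mouth of the core, had a median difference of 0.25 over 7 probe sets, with 6 above 0. No ATPase was called at an unadjusted p under 0.05, and for 4 of 7 the groups did not overlap, all on the higher side, where 38.9% of all probe sets lay. Psmc1 read 11.19 and 11.25 on the arrays labelled deficient, against 10.94 and 10.74 on the controls, by probe set 10397741 (difference 0.38, SE 0.15, adjusted p = 0.426). Its probe set 10439878 gave 0.21 (SE 0.19), with overlapping groups. Psmc2 read 10.10 and 10.32, against 9.81 and 9.89 (difference 0.36, SE 0.16), and Psmc5 11.95 and 11.70, against 11.28 and 11.58 (difference 0.39, SE 0.20). Psmc3 and Psmc4 differed by 0.24 (SE 0.18) and 0.25 (SE 0.43), and Psmc4 by −0.31 without deficient replicate 1.

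Psmc6 was the exception in sign among the ATPases. It read 5.49 and 7.65 on the arrays labelled deficient, against 8.06 and 6.68 on the controls, so its groups overlapped and its arrays spread widely in both. The difference of −0.80 (SE 0.94, adjusted p = 0.665) was 0.28 without deficient replicate 1 and −1.88 without deficient replicate 2, and −0.11 without control replicate 1.

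Non-ATPase subunits had a median difference of 0.16 over 15 probe sets, 0.016 above that of all probe sets, and ran from −1.24 to 1.18. No member of this class was called at an unadjusted p under 0.05. Between the groups 10 of 15 overlapped, as did 16742 of the 35556 probe sets of the table. Without overlap, 4 were higher on the arrays labelled deficient (26.7%, against 38.9% of all probe sets) and 1 lower (6.67%, against 14%). Psmd9, an assembly chaperone of the regulatory particle, had the highest difference of the family. It read 10.40 and 9.67 on the arrays labelled deficient, against 8.34 and 9.36 on the controls (difference 1.18, SE 0.47, adjusted p = 0.426), and 0.68 without control replicate 1. Psmd7, the partner of the deubiquitinase subunit, read 10.87 and 10.54, against 10.18 and 10.36 (difference 0.43, SE 0.19). Psmd2, a large scaffold and docking subunit, differed by 0.36 (SE 0.14) and 0.32 (SE 0.16) on its 2 probe sets, both without overlap.

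At the other end stood Psmd1, the other large scaffold subunit, with 7.65 and 9.58 on the arrays labelled deficient, against 9.93 and 9.79 on the controls. Both deficient values lay below the controls, but deficient replicate 1 lay far below deficient replicate 2. The difference of −1.24 (SE 0.71, adjusted p = 0.473) was −0.28 without deficient replicate 1 and −2.21 without deficient replicate 2. Psmd10 (gankyrin, an assembly chaperone) read 10.37 and 9.14, against 10.65 and 10.36, and differed by −0.75 (SE 0.48), but by −0.13 without deficient replicate 2. Psmd12, a scaffold subunit of the lid, read 9.32 and 10.57, against 10.45 and 10.16, and Psmd14, the deubiquitinase of the lid, 8.42 and 10.45, against 9.86 and 9.15.

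For Psmd12 and Psmd14 the control values lay between the 2 deficient ones. Their differences were −0.36 (SE 0.48) and −0.071 (SE 0.79), and without deficient replicate 1 they were 0.26 and 0.95. Psmd3, Psmd4 (the ubiquitin receptor) and Psmd8 differed by 0.60, 0.38 and 0.095, and by 0.11, −0.16 and −0.23 without deficient replicate 1. Psmd5, Psmd6, Psmd11 and Psmd13 differed by 0.23, 0.16, −0.17 and 0.071. Without deficient replicate 1, Psmd5 was at 0.017, Psmd11 at 0.17 and Psmd13 at −0.080, and Psmd6 was at 0.027 without control replicate 2. Psmd13 was also below 0 after subtraction of array medians (−0.0097).

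None of the 4 activator probe sets of the rule separated the groups. Psme1 (PA28α), which with Psme2 (PA28β) forms the interferon-inducible cap, read 11.51 and 11.15 on the arrays labelled deficient, against 11.46 and 11.56 on the controls (difference −0.18, SE 0.19, adjusted p = 0.638). Without deficient replicate 2 it was −0.00070. Psme2 read 10.03 and 9.96, against 10.06 and 9.88, and differed by 0.029 (SE 0.15, interval −0.40 to 0.46). It was −0.013 after cyclic loess and −0.051 after subtraction of array medians. A probe set shared by Psme2 and Psme2b was outside the rule and entered no count. It read 9.21 and 9.20 on the arrays labelled deficient, against 9.48 and 9.44 on the controls. Its groups did not overlap, and its difference was −0.25.

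Psme3 (PA28γ, a nuclear cap) read 10.61 and 10.15, against 10.56 and 10.07, a difference of 0.064 (SE 0.28) that was −0.16 without deficient replicate 1 and −0.18 without control replicate 2. Psme4 (PA200), in the dimmer 50% of probe sets, read 5.48 and 5.76, against 6.46 and 5.68. Its difference of −0.45 (SE 0.33, adjusted p = 0.530) was −0.060 without control replicate 1.

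The inhibitor gene was higher on both arrays labelled deficient. Psmf1 (PI31, named for inhibiting the core in vitro) read 8.68 and 8.23, against 7.63 and 7.09 on the controls. The groups did not overlap. The means were 8.46 ± 0.32 on the arrays labelled deficient and 7.36 ± 0.38 on the controls (SD, n = 2 each), a difference of 1.10 (SE 0.29, interval 0.28 to 1.92, limma adjusted p = 0.395), or 2.15-fold higher. It ran from 0.83 to 1.37 with each array left out.

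Of the 4 core assembly chaperones, which help alpha rings form, Psmg3 was higher and the others rested on single arrays. Psmg3 read 8.89 and 8.48 on the arrays labelled deficient, against 8.01 and 7.95 on the controls, without overlap (difference 0.71, SE 0.20, limma adjusted p = 0.407). Psmg1 read 11.01 and 9.92, against 9.89 and 9.98, and Psmg2 9.39 and 8.15, against 8.47 and 8.71. Their differences of 0.53 (SE 0.42) and 0.18 (SE 0.47) were −0.020 and −0.44 without deficient replicate 1. Psmg4 read 9.93 and 9.19, against 9.43 and 9.99 (difference −0.15, SE 0.36), and was 0.22 without deficient replicate 2 and 0.13 without control replicate 2. The class median of 0.35 was −0.23 without deficient replicate 1. Outside the classes, Psmc3ip, a meiotic recombination factor also named Hop2, differed by 0.40 (SE 0.18) and Psme3ip1 by 0.11 (SE 0.19).

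The arrays labelled deficient disagreed with each other over this family more than the control arrays did. Deficient replicate 1 was above deficient replicate 2 for 42 of 56 members (75%), against 45.9% of all probe sets and 52.4% of the brighter 50%. All 9 core beta, all 3 immunoproteasome and all 4 chaperone probe sets were among the 42. The median size of the gap was 0.35 between the arrays labelled deficient and 0.18 between the controls, against 0.31 and 0.25 over the brighter 50% and 0.23 and 0.21 over all probe sets. A gap over 1 on the log2 scale occurred for 10 members between the arrays labelled deficient (17.9%) and for 2 between the controls (3.57%), against 14.6% and 7.599% of the brighter 50%. Psmd1, Psmd12, Psmd14 and Psmc6 ran the other way, being lower on deficient replicate 1 by more than that gap.

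**Figure D3:**
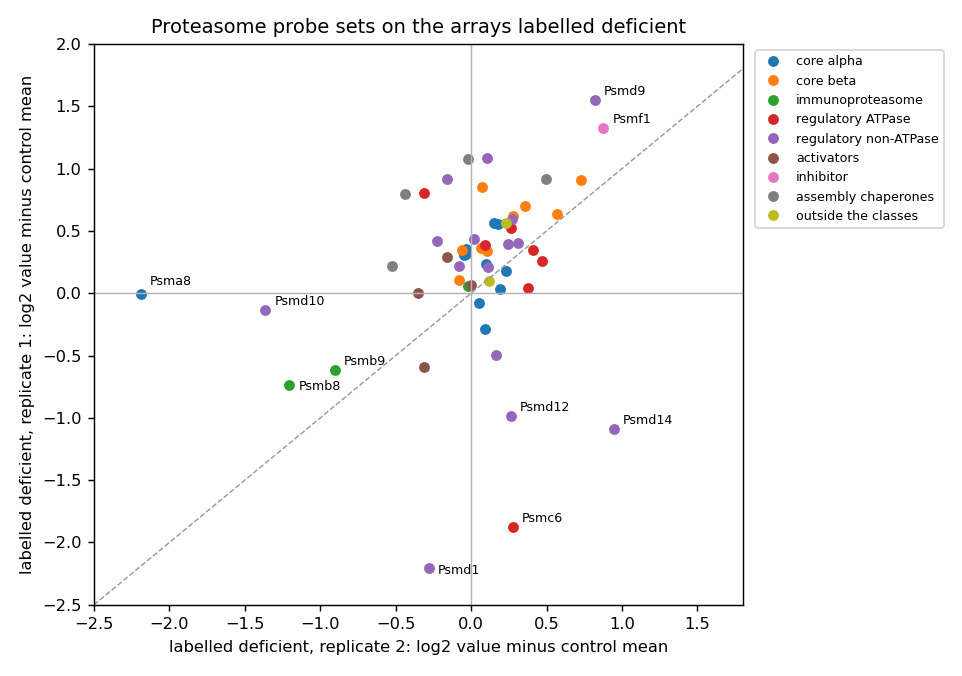
Each point is 1 proteasome probe set, with its log2 value minus the control mean on labelled-deficient replicate 2 (x axis) and replicate 1 (y axis), coloured by class; the dashed line marks equal values. Most points lie above the line, Psmb8 and Psmb9 are below 0 on both axes, and Psmd1, Psmc6, Psmd12 and Psmd14 lie far below the line.

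Differences of members therefore changed with the arrays used. Without deficient replicate 2, Psmb5, Psmc4, Psmd3, Psmd4, Psmg1 and Psmg2 were at 0.85, 0.81, 1.09, 0.92, 1.08 and 0.80. Without deficient replicate 1 they were at 0.073, −0.31, 0.11, −0.16, −0.020 and −0.44. Psma8 and Psmd10 were at −2.19 and −1.36 without deficient replicate 1, but at −0.0079 and −0.13 without deficient replicate 2. Psmd1 and Psmd12 were at −0.28 and 0.26 without deficient replicate 1, and at −2.21 and −0.99 without deficient replicate 2. Psmd9 was at 0.68 without control replicate 1 and at 1.69 without control replicate 2. At an unadjusted p under 0.05 in limma, no member was called in all 10 fits. With all 4 arrays, Psmb9, Psmf1 and both Psmb3 probe sets were called in each fit, and Psmb8 in each but that with the replicate block. These fits reuse the same arrays, and the share of all probe sets called as often was not computed. Psmb2 was not called with the replicate block, after subtraction of array medians or in the brighter 50%. Psmg3 was not called after subtraction of array medians or with the robust prior. The immunoproteasome median, which is the value of Psmb9, stayed between −0.90 and −0.62 with any 1 array left out. Psmb10 ran from −0.022 to 0.058 in the same fits.

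**Figure D4:**
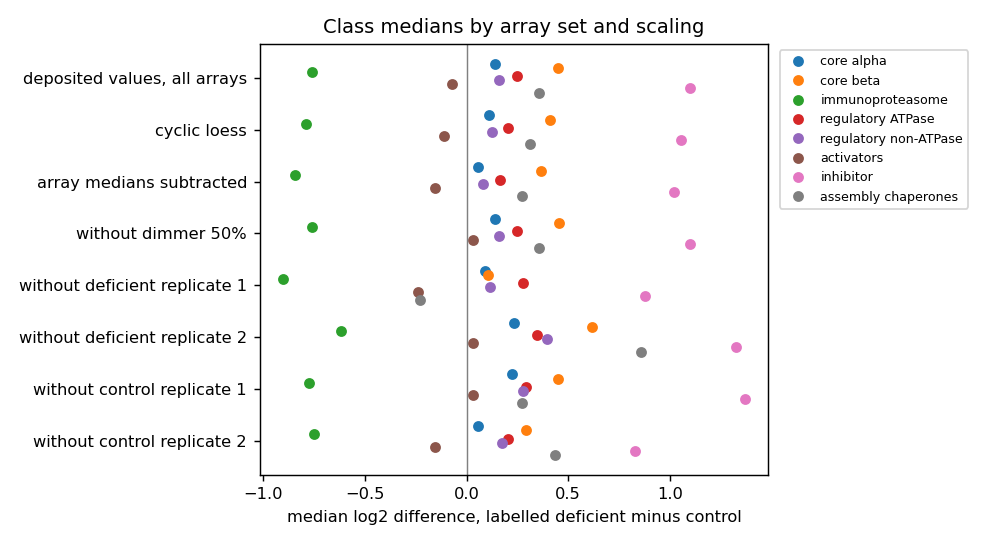
Median log2 difference (labelled deficient minus control) of each class of proteasome probe sets, under the deposited values, under other scalings and with 1 array left out. The immunoproteasome, whose median is the value of Psmb9, lies left of 0 in every row. The inhibitor, 1 probe set, lies right of 0 in every row, while the assembly chaperones change sign without deficient replicate 1.

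Genes around the proteasome were taken from 5 lists, chosen with earlier results of these data known. MHC class I peptide loading genes, which use the peptides that proteasomes release, all had differences below 0 in the 10 measured of 13 listed, with a median of −0.50, against 0.15 over all probe sets, of which 11967 of 35556 lay below 0. Tap1 and Nlrc5, the latter by its brightest probe set, lay lower at an unadjusted p under 0.05. This makes 2 of 10, against 5.25% of all probe sets, and the count of 2 became 1 with the trended robust prior. Of the 10, 0 were higher and 0 passed the adjusted threshold. Tap1, a peptide transporter subunit, read 7.67 and 7.52 on the arrays labelled deficient, against 8.63 and 9.09 on the controls (difference −1.26, SE 0.22, limma adjusted p = 0.313). Both deficient values lay below the controls. Tap2, its partner, differed by −0.43 (SE 0.52), with overlapping groups.

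Nlrc5, the class I transactivator, differed by −0.73 (SE 0.23) on its brightest probe set. Over its 19 probe sets the median was −0.056, with a range of −1.56 to 0.40 and 10 below 0. At an unadjusted p under 0.05, 1 of the 19 was lower and 1 higher, so the probe sets disagreed. Pdia3 and Canx, chaperones of class I folding, differed by −0.58 (SE 0.27) and −1.06 (SE 0.57), and B2m, the invariant chain, by −0.17 (SE 0.15). Tap2 and B2m were picked with their values in view. The summed linear level of the list was 8420 and 10329 on the arrays labelled deficient, against 12969 and 12126 on the controls.

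Interferon signalling genes had a median of −0.59 over 12 measured of 13, with 10 below 0. Of these 12, 3 lay lower with an unadjusted p under 0.05, against 5.25% of all probe sets and 8.34% of the brighter 50%, and 0 higher. Stat2 and Irf9, partners in the complex that type I interferon activates, differed by −0.65 (SE 0.17, adjusted p = 0.397) and −0.53 (SE 0.17, adjusted p = 0.408). The receptor genes Ifnar2 and Ifngr1 differed by −1.32 (SE 0.46) and 0.53 (SE 0.19). Irf1, a direct inducer of Psmb9, read 6.69 and 7.07, against 7.08 and 6.91, with overlapping groups and a difference of −0.11 (SE 0.20). The count of 3 became 0 without either control array, and 1 with a replicate block.

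Cofactors and regulators of the proteasome had a median of −0.33 over 13 measured of 16, with 1 lower and 1 higher at an unadjusted p under 0.05, against 5.25% and 6.64% of all probe sets. With each array left out, 0 to 3 were lower and 0 higher, and 0 were higher after subtraction of array medians, with the replicate block or in the brighter 50%. Ecpas (ECM29, an adaptor that binds the 26S form) read 5.86 and 6.75, against 7.83 and 7.79 (difference −1.50, SE 0.35, adjusted p = 0.376), and Txnl1 differed by 0.43 (SE 0.14). Ube3c, a proteasome-bound ubiquitin ligase, and Akirin2, which brings proteasomes into the nucleus, differed by −0.33 (SE 0.16) and −0.30 (SE 0.20). Nfe2l1, the factor that raises proteasome genes when activity drops, differed by −0.48 (SE 0.33) and Pomp, the maturation factor of the core, by 0.041 (SE 0.46). Adrm1 had no single-gene probe set.

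Shuttles and VCP cofactors, which bring ubiquitin-tagged proteins to the proteasome, had a median of −0.14 over 13 of 14, with 2 lower (Ubqln2 by −0.98, SE 0.16, and Faf1 by −0.64, SE 0.15) and 1 higher (Ufd1 by 0.51, SE 0.18). Ubxn7 differed by −1.32 (SE 0.53). By unadjusted p, the whole table had 5.25% called lower and 6.64% called higher, the background for this list and the next. Ubiquitin, E1 and E2 genes had a median of −0.021 over 19 of 24, with 2 lower and 2 higher. With each array left out, these counts ran from 1 to 3 lower and 0 to 3 higher, and those of the shuttle list from 1 to 3 lower and 0 to 1 higher. Ube2r2 differed by −1.15 (SE 0.14, adjusted p = 0.235) and Uba6, an E1 enzyme, by −0.55 (SE 0.19), against 0.76 (SE 0.17) for the mitotic E2 Ube2c and 1.10 (SE 0.35) for Cdc34. None of the 4 passed after adjustment.

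**Figure D5:**
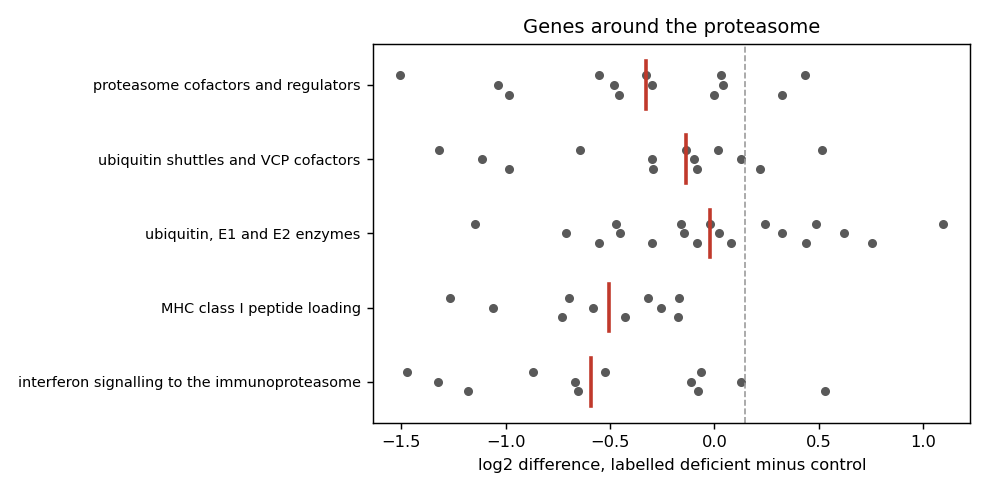
Each grey point is the log2 difference (labelled deficient minus control) of 1 gene in 5 lists around the proteasome; red bars are list medians and the dashed line is the median of all probe sets, 0.15. All 10 class I loading genes lie left of 0, while E1 and E2 enzymes spread to both sides.

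Over the whole table the highest correlation between a control array and one labelled deficient was 0.942, against 0.944 between the arrays labelled deficient and 0.960 between the controls. Gabpa itself read 6.43 and 7.85 on the arrays labelled deficient, against 8.43 and 7.28 on the controls, so its probe set did not separate the groups and the groups are called by their labels. Kit, a gene of the sorting gate, read 7.70 and 8.50, against 10.21 and 10.21. Flt3, whose surface protein the gate excluded, read 5.68 and 5.95 on the arrays labelled deficient, against 8.43 and 9.26 on the controls. It was counted in both the stem and progenitor and the dendritic list. Other cell type lists had medians of 0.79 for macrophage, 0.45 for stromal and endothelial, 0.56 for B and plasma, 0.38 for T and NK, 0.19 for granulocyte and monocyte and 0.34 for dendritic markers. Macrophage markers summed to 5174 and 3298 on the arrays labelled deficient, against 2284 and 2140 on the controls, and their part in the member values was not tested. The median of all probe sets was −0.0045 after cyclic loess in place of 0.15, and the split of unadjusted calls over the table, 2360 higher and 1865 lower, became 1191 and 2349.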

How the data were processed

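The authors deposited 1 log2 expression value per probe set and array, and per the submitters' processing notes they used RMA (background correction, quantile normalization and probe summary) and Partek, without versions. The values ran from 1.98 to 13.67 and were used as deposited. The sources used here do not give the build behind the probe mapping. All 4 columns were mapped to samples, and 0 were left over. Probe sets were named from the platform annotation, with symbols updated by Entrez number through RefSeq (GRCm38.p6), which also gave the promoters. 21789 probe sets had 1 symbol, 1621 several and 12146 none.

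limma 3.58.1 in R 4.3.3 (lmFit, eBayes, genotype only) was fitted over all 35556 probe sets with Benjamini-Hochberg adjustment. The fit was tested on simulated data. List genes with several probe sets were taken from the brightest. Array data carry no read depth, so the number of arrays limits the precision.

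All members could be named. The catalytic pairs, activators, inhibitor and up to 3 probe sets per direction and class were given by array, and up to 4 genes per related list. Members and lists were chosen with earlier results of these data known. Replicate numbers were not treated as pairs, since the labels do not say that they mark a shared litter or day. Alternatives were cyclic loess, array medians, the brighter 50%, a replicate block, a trended robust prior, 1 probe set per gene and each array left out. Figures used matplotlib 3.10.9.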

Additional observations from a re-analysis of the deposited data

How the results depend on the processing

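In every alternative limma called 0 members at an adjusted p under 0.05. The count of members lower at an unadjusted p under 0.05 was 1 with the replicate block, in place of 2, since Psmb8 dropped out, and ran from 1 to 4 with each array left out. The count higher was 3 after subtraction of array medians, in place of 5, and ran from 0 to 11 with each array left out. Over the whole table, 2360 probe sets were higher and 1865 lower at that mark. These counts were 1191 and 2349 after cyclic loess, and 1537 and 2185 after subtraction of array medians. They were 1341 and 1666 with the replicate block, and 964 and 1348 in the brighter 50%. The block moved no other count of members by over 1.5 times, and deviations of same-numbered arrays correlated at −0.088. The core beta median ran from 0.11 to 0.62 and the assembly chaperone median from −0.23 to 0.86 with each array left out. The activator median of −0.074 was 0.029 without the dimmer 50% of probe sets, where Psme4 drops out, and ran from −0.24 to 0.031 with each array left out. Cyclic loess turned Psmb10 to −0.033 and Psme2 to −0.013. Subtraction of array medians turned Psmb10 to −0.063, Psme2 to −0.051 and Psme3 to −0.016. With each array left out, signs also changed for Psma1 (−0.12 to 0.090), Psma4 (−0.38 to 0.19), Psmb6 (−0.063 to 0.35), Psmb10 (−0.022 to 0.058), Psmc6 (−1.88 to 0.28), Psmd12 (−0.99 to 0.26), Psme2 (−0.061 to 0.12), Psme3 (−0.18 to 0.31), Psmg1 (−0.020 to 1.08), Psmg2 (−0.44 to 0.80), Psmg4 (−0.53 to 0.22), the 3 Psma3 probe sets (−0.048 to 0.31, −0.033 to 0.35 and −0.036 to 0.31), Psmb11 (−0.15 to 0.18), Psmc4 (−0.31 to 0.81), Psmd4 (−0.16 to 0.92), Psmd8 (−0.23 to 0.42), Psmd11 (−0.50 to 0.17), Psmd13 (−0.080 to 0.22), Psmd14 (−1.09 to 0.95) and Psme3ip1 (−0.071 to 0.29). With 1 array left out, the lone array of its group was assumed to vary like the other group. The cause of these changes was not tested, and no detection calls were used, so signal over background is unknown.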
